A study of Mus musculus with 8 samples.

Results

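The cells described here are the mature oligodendrocytes of the mouse prefrontal cortex (PFC), taken as every cell that the deposited annotation of the PFC calls Oligo. There were 1694 of them among 8997 annotated PFC cells, and 23687 cells were annotated over the whole study. Mature oligodendrocytes wrap axons in myelin, a stack of lipid-rich membrane held together by a few abundant proteins, and they also feed and buffer the axons that they wrap. They arise from oligodendrocyte progenitor cells (OPC) through a short stage of newly formed oligodendrocytes (NFO), and the mature cells of the adult brain are known to differ among themselves and between regions. The study measured these cells by droplet single-cell RNA sequencing, in which each captured RNA molecule is counted once through its unique molecular identifier (UMI), read at the 3′ end of the transcript.

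All mice were males of the strain C57BL/6N, labelled as 8 to 10 weeks old. The methods of the study give a higher age, and which is right is not known here. The Setd1a+/- mice carried a CRISPR-Cas9 frameshift deletion in exon 15 of 1 copy of Setd1a, present in every cell of the body, and the WT mice were their littermates with no treatment. Setd1a encodes a methyltransferase that places methyl groups on lysine 4 of histone H3. The PFC gave 2 WT and 2 Setd1a+/- libraries, each from the pooled tissue of 2 mice, and a biological replicate consisted of a WT and a Setd1a+/- library. The striatum, dissected with its dorsal and ventral parts and labelled NAc, gave the same number of libraries from mice of the same 2 genotypes, and its 2345 annotated oligodendrocytes are used here for comparison.

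WT replicate 1 held 692 of the oligodendrocytes, which was 26.4% of its annotated cells (95% Wilson interval 24.7 to 28.1). WT replicate 2 held 375 (14.0%, 12.7 to 15.4), Setd1a+/- replicate 1 held 321 (14.7%, 13.3 to 16.2) and Setd1a+/- replicate 2 held 306 (20.3%, 18.3 to 22.4). These intervals cover counting error only, and they do not overlap between the replicates of a genotype. The mean share was 20.2% (SD 8.76, n = 2 libraries) in WT and 17.5% (SD 3.97, n = 2) in Setd1a+/- mice, a difference of -2.70 percentage points that was within the spread between libraries (exact permutation test, two-sided, p = 1.0; with 2 libraries against 2 the smallest possible p is 0.333). Without WT replicate 1 the difference was 3.50 points and without WT replicate 2 it was -8.89. Microglia made up 10.1% and 2.99% of the cells of the WT libraries and 2.1% and 6.03% of the Setd1a+/- libraries, so their share was higher in the same replicate of each genotype as that of the oligodendrocytes. Their part in the shares was not tested.

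The median oligodendrocyte held 2190.5 and 1888 UMIs in the WT libraries and 2024 and 1993 in the Setd1a+/- libraries. It held 1031.5, 920, 929 and 940.5 detected genes in the same order. The difference of the genotype means of the median was -30.75 UMIs (exact permutation test, two-sided, p = 1.0, n = 2 libraries per genotype), and leaving out 1 library at a time gave -182 to 120.5. Summed over its oligodendrocytes, a PFC library held between 700176 and 1725083 UMIs. Levels are given below as CPM, a gene's UMIs per 1000000 of these summed UMIs. The 4 values of a gene are always in the order WT replicate 1, WT replicate 2, Setd1a+/- replicate 1 and Setd1a+/- replicate 2. Since only transcript ends were counted, a level is compared between groups of cells and never between genes.

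The markers that define these cells were present. Every one of the 1694 cells held UMIs of at least 2 of the 4 genes Opalin, Ermn, Mog and Mobp, and 606, 299, 269 and 259 cells of the 4 libraries held all 4. Opalin, which encodes a transmembrane protein of the myelin sheath, was 2645, 2758, 3784 and 2589 CPM, and the next type in order, the newly formed oligodendrocytes, had 35.6 CPM. Ermn, which encodes the actin-binding protein ermin of the outer cytoplasmic rim of myelin, was 2372, 2237, 1872 and 2329 CPM, and the next type, microglia, had 8.55 CPM. Mog, an immunoglobulin-like protein on the outermost myelin lamella, was 2464, 2228, 2885 and 2341 CPM against 233 CPM in newly formed oligodendrocytes. Mobp, a small basic protein of the compact sheath, was 2730, 3432, 3451 and 3559 CPM against 74.4 CPM in newly formed oligodendrocytes. The authors clustered the cells on their expression and named the clusters by known markers, so the levels describe the group and are not a test of it.

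The sequences around the starts of these marker genes are shown because the 4 genes are low in newly formed cells and high in every mature library. Each runs 5′ to 3′ on the strand of the gene, from 250 bases before to 50 bases after a RefSeq start (GRCm38.p6), in lower case, with ACAAAG or its reverse complement CTTTGT in capitals. ACAAAG is a core that Sox proteins bind, among them Sox10, the factor that keeps oligodendrocyte identity.
Opalin, chr19:41077064-41077363, minus strand: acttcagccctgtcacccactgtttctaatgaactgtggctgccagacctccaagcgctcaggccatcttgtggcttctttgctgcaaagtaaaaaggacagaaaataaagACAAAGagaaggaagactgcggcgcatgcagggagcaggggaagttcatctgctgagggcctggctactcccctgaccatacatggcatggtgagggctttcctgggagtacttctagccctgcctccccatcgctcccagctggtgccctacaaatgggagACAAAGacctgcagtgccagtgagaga
Ermn, chr2:58052815-58053114, minus strand: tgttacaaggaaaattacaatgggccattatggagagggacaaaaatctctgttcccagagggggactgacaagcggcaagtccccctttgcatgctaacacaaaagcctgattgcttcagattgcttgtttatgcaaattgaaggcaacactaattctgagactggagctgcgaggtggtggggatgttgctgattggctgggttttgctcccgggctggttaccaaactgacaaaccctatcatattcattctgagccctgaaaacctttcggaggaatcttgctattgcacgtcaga
Mog, chr17:37023349-37023648, minus strand: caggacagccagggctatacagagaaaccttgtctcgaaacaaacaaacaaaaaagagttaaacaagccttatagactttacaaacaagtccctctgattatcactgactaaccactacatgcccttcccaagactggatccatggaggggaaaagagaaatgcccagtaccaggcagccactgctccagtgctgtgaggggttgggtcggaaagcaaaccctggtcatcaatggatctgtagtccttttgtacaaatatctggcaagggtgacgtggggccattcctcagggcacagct
Mobp, chr9:120149492-120149791, plus strand: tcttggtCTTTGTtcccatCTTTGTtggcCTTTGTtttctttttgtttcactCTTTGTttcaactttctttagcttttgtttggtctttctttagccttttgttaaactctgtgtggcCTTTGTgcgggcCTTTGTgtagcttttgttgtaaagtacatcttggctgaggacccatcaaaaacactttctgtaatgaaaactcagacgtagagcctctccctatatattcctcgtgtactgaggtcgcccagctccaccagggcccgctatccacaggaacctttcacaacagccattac
The Opalin window held 2 matches, the Mobp window held 6, and the Ermn and Mog windows held 0. Of all 32851 windows of this length in the RefSeq table, 18.7% held at least 1 match on either strand. A match is a run of letters and not a measured binding site.

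Beyond the 4 markers, the mature oligodendrocytes held a set of genes well above their level in other PFC cells. Of 2649 genes that reached 50 CPM over the oligodendrocytes of the 4 libraries together, 91 (3.44%) were at least 4-fold above every other PFC type in pooled CPM, and 47 of the 91 were at least 10-fold above. Some members were nevertheless abundant elsewhere, such as Fth1 at 5784 CPM and Trf at 1097 CPM in microglia, Car2 at 1274 CPM in astrocytes and Ptgds at 874 CPM in newly formed oligodendrocytes. The highest other type was the newly formed oligodendrocyte for 39 of them, the progenitor for 13, the endothelial cell for 11, the astrocyte and the excitatory neuron for 8 each, and the interneuron and microglia for 6 each. At the edge of the set, Abca2 was 4.04-fold above the next type and Slc12a2 was 3.96-fold above it and fell outside. No test belongs to this set, since the cells were clustered on their expression.

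The genes that stood furthest from all other types, at 50 CPM or more in each library and ranked with a floor of 3 UMIs for the other type, were led by Ermn (262-fold) and Opalin (81.0-fold). Next came Anln, the actin-bundling protein anillin, at 358, 232, 148 and 150 CPM, with 2 UMIs in all newly formed oligodendrocytes together. C030029H02Rik, a transcript without a known product, followed at 74.7-fold over interneurons. Aspa, the enzyme that splits N-acetylaspartate into acetate for lipid synthesis, was between 1188 and 1252 CPM in the 4 libraries and 68.9-fold above astrocytes. Galnt6, Tnni1 and Plekhh1 came next, each with 3 or fewer UMIs in newly formed oligodendrocytes, before Mobp (42.4-fold) and Smco3 (38.5-fold). Klk6, a secreted serine protease, was at 0 UMIs in the newly formed oligodendrocytes of the 4 libraries and therefore at least 36.9-fold higher in the mature cells, with 3 UMIs over all these cells as the floor. Serpinb1a, an inhibitor of serine proteases, Qdpr, which regenerates tetrahydrobiopterin, and Nkx6-2, a homeodomain factor of the lineage, stood 23.2-fold, 22.6-fold and 21.6-fold above the next type. D7Ertd443e, Trim59, Arsg, Pdlim2, Gpr37 and A230009B12Rik completed the first 20. Gpr37, a receptor that marks the maturing lineage, was 17.6-fold above astrocytes.

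**Figure D1:**
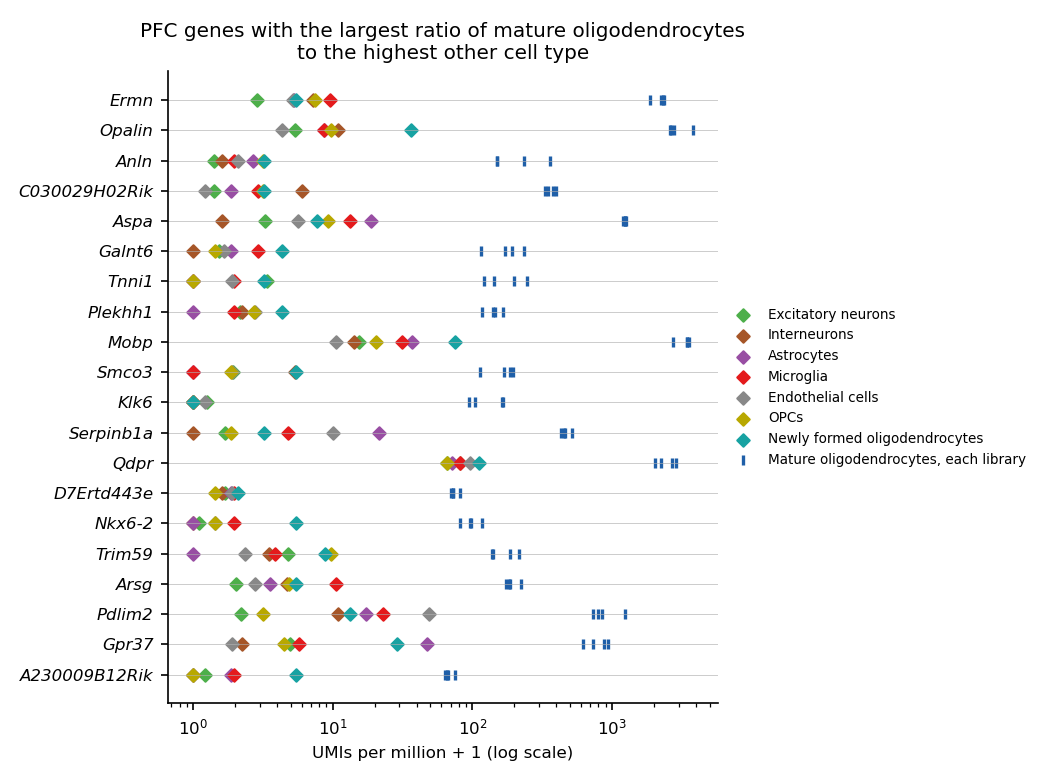
Levels of genes that stood furthest above the other PFC types, on a log scale of CPM + 1, with 1 row per gene. Each other cell type has 1 mark, its pooled CPM, and the mature oligodendrocytes have 1 mark per library. The marks of the mature oligodendrocytes lie to the right of all others in each row. By pooled CPM, Ermn was 262-fold and Opalin 81.0-fold above the next type.

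Lists of genes with known roles in these cells differed in how far they were particular to them by this measure. Among genes of the myelin structure list that reached 50 CPM, 8 of 24 were in the set, namely Mal, Mobp, Opalin, Mog, Ermn, Tspan2, Gjb1 and Tmem125. Mbp, Cnp and Mag, which encode well-known proteins of myelin, were outside it, and newly formed oligodendrocytes already held them in quantity. Genes that are known to vary among mature oligodendrocytes held 11 of 19, including Ptgds, Car2, Trf, Apod, Il33 and Klk6. Axon contact, channel and gap junction genes held 6 of 15, among them the adhesion protein Cntn2 and the potassium channel Kcna1. Receptors for growth factors and lipids held 4 of 7, Gpr37, Lpar1, Fgfr2 and S1pr5. The list for trophic support and iron held 3 of 13 (Fth1, Trf and Aspa), the cytoskeleton list 3 of 15, and the galactolipid list 2 of 8 (Aspa and Cers2). Nkx6-2 was the 1 of 9 lineage transcription factors, and 0 of 12 cholesterol synthesis genes, 0 of 9 fatty acid synthesis genes, 0 of 4 genes for methylation of histone H3 lysine 4, and 0 of 4 immediate early and stress genes were in the set. The share of all genes at 50 CPM or more that were in the set was 3.44%, so nothing is read from counts of 0 or 1 in such short lists. Over all 2649 genes the median ratio of the mature oligodendrocytes to the highest other type was 0.600, and it was 6.22 for the subset genes, 2.21 for myelin structure and 0.665 for cholesterol synthesis.

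RefSeq windows were found for 76 of the 91 genes, 104 windows in all because some genes have several starts. ACAAAG or its reverse complement was in 25 of the 104 (24.0%), beside 18.7% of all windows.

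The lineage passed through 3 patterns on the way to these cells. Progenitor genes were low in the mature cells, and some already in the newly formed ones. Pdgfra, the receptor for the mitogen of progenitors, was 1051 CPM in progenitors, 3.33 CPM in newly formed and 10.2 CPM in mature oligodendrocytes. Vcan, a matrix proteoglycan, was 845 CPM in progenitors, was still 471 CPM in newly formed cells and was 10.7 CPM in mature ones. Genes of the newly formed stage rose and fell again. Bmp4, a secreted ligand of the lineage, was 16.4, 713 and 0.995 CPM in the 3 stages, and Fyn, the kinase that links axon contact to local myelin protein synthesis, was 117, 3030 and 25.9 CPM. Enpp6, a choline phosphodiesterase used to mark cells that have just differentiated, went from 0.432 to 1408 and then to 142 CPM. Neu4, a sialidase, and the orphan receptor Gpr17 were already present in progenitors, at 612 and 270 CPM, and were 900 and 973 CPM in newly formed and 5.97 and 14.7 CPM in mature cells. The third pattern was that of genes that came last. Car2, the carbonic anhydrase of oligodendrocytes, was 29.4, 25.6 and 8049 CPM, Trf, which encodes the iron carrier transferrin, was 26.8, 84.4 and 6821 CPM, and Ptgds, the prostaglandin D2 synthase, was 272, 874 and 10480 CPM.

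The major myelin genes belonged to none of these patterns alone. Mbp, the basic protein that compacts the sheath, was 154 CPM in progenitors, 10044 in newly formed and 12542 in mature cells, and it was higher in the mature than in the newly formed cells in 3 of the 4 libraries. Mag, the adhesion protein of the inner sheath, was 11.7, 876 and 3020 CPM. In the myelin structure list, 18 of 24 genes were higher in mature than in newly formed cells in all 4 libraries, and Cd9, Gjc3, Sirt2 and Bcas1 were lower in all 4. Sirt2, a tubulin deacetylase, went from 7191 CPM in newly formed to 1071 CPM in mature cells.

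Of the lineage transcription factors, 10 of 16 were lower in mature than in newly formed cells in all 4 libraries and 3 were higher, Nkx6-2, St18 and Zfp536. Olig2, a factor of the whole lineage, was 133, 86.7 and 31.1 CPM, and Tcf7l2, a factor of the onset of myelination, was 59.2, 421 and 20.6 CPM. Myrf, which switches on myelin genes, was 14.7, 114 and 119 CPM. The genes that vary among mature cells were higher in 16 of 20 cases and lower in 2, S100b and Itpr2. Among cholesterol synthesis genes 7 of 14 were higher and 2 were lower in all 4 libraries. Over all 3730 genes that reached 50 CPM in either stage, 734 were higher and 1965 were lower in the mature cells in all 4 libraries. These stages were also told apart by clustering on expression, so the values are a description.

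Mature oligodendrocytes were not alike within a library. Variation between cells was measured as the variance of Pearson residuals, which is near 1 for a gene whose counts vary only as sampling from cells of different depth would make them; the median of 10230 genes was 1.00. Ptgds had a variance of 17.1 to 21.5 in the 4 PFC libraries. Other genes among those with the largest variances, ranked by the lowest of the 4 libraries, were Malat1, Cst3, Fth1, Actb, Car2, Trf, Glul, Ctss, C1qc, S100b, Selenop, Il33, C1qb, Cd81, C1qa, Dpysl2 and Meg3. Ctss, C1qa, C1qb and C1qc are genes of microglia, whose RNA is taken up below, and Cst3, a protease inhibitor, was also at least 4-fold higher in PFC microglia than in these cells. All 5 varied more in each PFC library than in any striatal one, with 6.01 to 11.6 against 2.10 to 4.28 for Cst3. Car2 and Glul also did so, by less. For the other genes named here the ranges of the tissues overlapped, although Meg3 reached 13.3 in striatal WT replicate 1, above every PFC library. S100b, a calcium-binding protein, had a variance of 3.30 to 4.65 in the PFC and 4.14 to 5.43 in the striatum.

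Genes of oligodendrocytes varied together, in a pattern that recurred in each PFC library of 692, 375, 321 and 306 cells. The correlations of residuals across cells are descriptions, since the cells of a library share its depth and its free RNA. Klk6 and S100b had a correlation of 0.54 to 0.62 over the 4 libraries. Trf went with Fth1, the iron-storing ferritin heavy chain (0.63 to 0.78), and with Apod, the lipid carrier apolipoprotein D (0.57 to 0.66). Opalin ran against them, with -0.42 to -0.38 for Klk6, -0.51 to -0.45 for S100b and -0.57 to -0.49 for Trf, and it went with the tetraspanin Cd81 (0.38 to 0.63). Ptgds went with Il33, an alarmin kept in the nucleus (0.35 to 0.54), and against S100b (-0.38 to -0.32). The cytoskeletal genes Actb and Dpysl2 formed a pair of their own (0.45 to 0.60).

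Cells with and without a Klk6 UMI were set side by side to show the sizes. A Klk6 UMI was found in 10.5%, 12.8%, 17.8% and 11.8% of the oligodendrocytes of the 4 libraries. With each cell thinned to 1000 UMIs, which left out 0 cells, the shares were 5.78%, 8.80%, 11.8% and 7.52%. PFC cells of all types but mature and newly formed oligodendrocytes, progenitors included, were at 0% where they held at least 1000 UMIs. In cells with the UMI, the CPM of S100b was 6.67 to 12.0 times that in the other oligodendrocytes of the same library, that of Anxa5, a phospholipid-binding annexin, was 3.68 to 7.08 times, and that of Selenop, the selenium carrier, was 3.05 to 5.03 times. Apod was 2.07 to 2.71 times and Trf 1.74 to 2.26 times. In the same cells Opalin was at 0.160 to 0.218, Ptgds at 0.0897 to 0.134 and Il33 at 0.119 to 0.302 of their level in the others. The common myelin genes had ratios near 1, with 0.971 to 1.17 for Mbp and 0.826 to 1.02 for Mog. The split was chosen after the values were seen, and it reads from Klk6 itself, so no test is given.

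**Figure D2:**
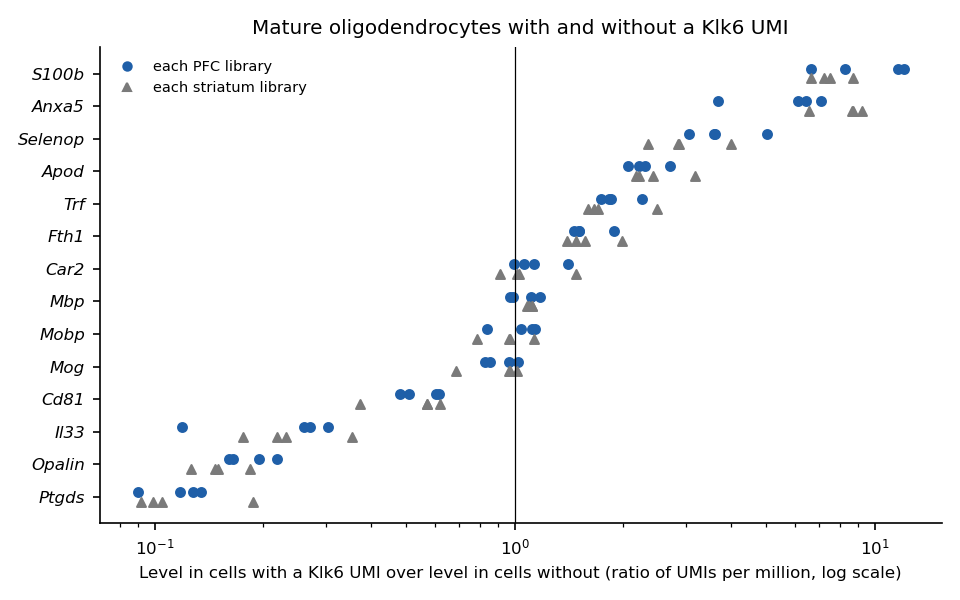
Ratio of a gene's CPM in oligodendrocytes with a Klk6 UMI to its CPM in those without, on a log axis, with 1 point per library and the tissues in separate colors. S100b lies at 6.67 to 12.0 and Opalin at 0.160 to 0.218 in the 4 PFC libraries, while Mbp and Mog lie near 1.

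The first comparison of groups asked what the loss of 1 copy of Setd1a does to the expression of these cells. No gene of 6577 tested was called between the genotypes by the cutoffs used, a false discovery rate (FDR) under 0.05 with a fold change (FC) above 1.5 (0%, edgeR quasi-likelihood test on UMIs summed per library, Benjamini-Hochberg adjustment, n = 2 libraries per genotype). DESeq2 called 1. With 2 libraries per genotype, a count of 0 does not show that no gene differed. At an unadjusted p under 0.05 there were 97 genes (1.47%), 38 of them higher and 59 lower in Setd1a+/- mice.

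Setd1a itself (chromosome 7, 127776670 to 127800122, GRCm38) was 3.48, 8.62, 2.55 and 1.43 CPM, from 6, 7, 2 and 1 UMIs. The Setd1a+/- libraries were below both WT libraries, but the gene was too low in these cells to be tested. The UMIs read the transcript's 3′ end and the deletion lies upstream of it, so they do not show the deletion itself. With 1 to 7 UMIs per library, the level is no check of the genotype.

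With the biological replicate as a block, edgeR called 3 genes, all higher in Setd1a+/- mice (0.0456% of the genes tested). The terms of this fit use up most of the 4 libraries, so its FDRs rest largely on the spread shared across genes. The log2 FCs and SEs printed for the 3 genes come from the fit without the block. Sgk1, a kinase induced by glucocorticoids and osmotic stress, was 226, 441, 614 and 2084 CPM, and both Setd1a+/- libraries were above both WT libraries. Its log2 FC was 2.09 (SE 0.61; FDR 1.0 without and 0.0036 with the block, edgeR). It was found in 38.3% and 49.6% of WT and in 66.0% and 93.8% of Setd1a+/- oligodendrocytes. The empty droplets held it at 76.5, 57.0, 132 and 103 CPM, also higher in both Setd1a+/- libraries, and the oligodendrocytes lay above them in every library. Without Setd1a+/- replicate 2 its log2 FC was 0.92. In striatal oligodendrocytes, in the same order of libraries, the share was 51.8%, 57.2%, 69.1% and 41.8%, and there the groups overlapped. Among the other PFC types, newly formed oligodendrocytes held 693, 633, 835 and 744 CPM of Sgk1 and endothelial cells held 295, 367, 442 and 352 CPM, and neither was highest in Setd1a+/- replicate 2. Microglia held 144, 146, 223 and 254 CPM and progenitors 102, 96.5, 192 and 185 CPM. In the newly formed oligodendrocytes, the microglia and the progenitors both Setd1a+/- libraries were thus above both WT libraries as well, while in endothelial cells, astrocytes and both classes of neurons the genotypes overlapped.

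Nfkbia, the inhibitor that holds NF-kappaB in the cytoplasm, was 41.7, 44.3, 113 and 179 CPM, and the genotypes did not overlap. Its log2 FC was 1.83 (SE 0.31; FDR 1.0 without and 0.018 with the block, edgeR). It was counted in 9.83% and 8.80% of WT and in 24.3% and 31.0% of Setd1a+/- oligodendrocytes. The empty droplets held it at 144, 65.0, 122 and 86.4 CPM, and endothelial cells held it at 1161 to 1359 CPM. Those endothelial cells, progenitors (57.0, 45.6, 79.0 and 80.3 CPM) and astrocytes (113, 110, 162 and 119 CPM) were also higher in both Setd1a+/- libraries. In newly formed oligodendrocytes (47.6, 5.10, 27.3 and 35.9 CPM), microglia and both classes of neurons the genotypes overlapped. In striatal oligodendrocytes it was 69.1, 71.9, 94.2 and 44.1 CPM, and the genotypes overlapped. In no PFC library but Setd1a+/- replicate 2 was the oligodendrocyte level above that of the empty droplets. In the striatum only WT replicate 2 was above them (71.9 against 70.3 CPM). The part of free RNA in the difference was not tested.

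The last of the 3, the long noncoding RNA 9630013A20Rik, was 8.12, 7.39, 159 and 28.6 CPM (log2 FC 3.62, SE 0.78; FDR 1.0 without and 0.0038 with the block, edgeR). Its 125 UMIs in Setd1a+/- replicate 1 came from 6 of 321 cells, 75 of them from 1 cell. It is a gene of the stage before, and newly formed oligodendrocytes held it at 1420 to 2259 CPM in every library. The other Setd1a+/- library held 20 UMIs, 18 of them in 1 cell, and WT replicate 1 held its 14 UMIs in 1 cell, so few of the cells labelled as mature carried the RNA.

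Of the remaining genes by the smallest p among those whose libraries did not overlap, none passed the test with or without the block. Non-overlap by itself was common, with 602 genes (9.15%) higher and 1123 (17.1%) lower in both Setd1a+/- libraries. Higher in Setd1a+/- cells were Birc2, an inhibitor of apoptosis that also acts in NF-kappaB signaling (49.9, 51.7, 143 and 81.4 CPM), Polr3e, a subunit of RNA polymerase III (136, 188, 289 and 417 CPM), Tma16, Fam214a, Hspa2, Thap1 and Fcnaos. Values were lower for the linker histone gene Hist1h1e (38.8, 17.2, 2.55 and 5.71 CPM), for Tet1, which oxidizes methylated cytosine (41.7, 33.2, 11.5 and 14.3 CPM), and for Apoe (631, 479, 237 and 308 CPM). Apoe encodes a lipid carrier that astrocytes held at 3899 to 6038 CPM, with the lowest values in the Setd1a+/- libraries there too. Zer1, Klf3, Parp2, Sec63, Nedd4, Anln and Ankrd11 completed the list of lower genes. Hist1h1e rested on 2 and 4 UMIs in the Setd1a+/- libraries, where the empty droplets held 2.44 and 2.99 CPM. Apoe was below the empty droplets in Setd1a+/- replicate 1 (394 CPM there). Sec63 and Nedd4 were below them in both Setd1a+/- libraries and Parp2 in all 4 PFC libraries, while Anln was above them in all 4. The part of free RNA in these differences was not tested.

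**Figure D3:**
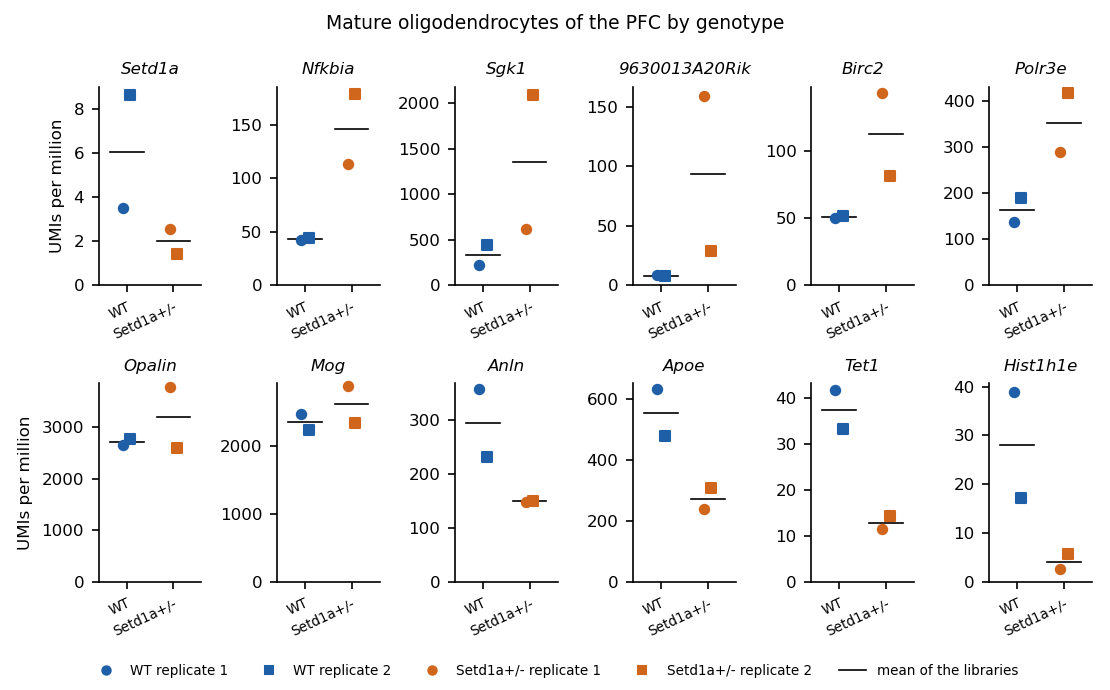
CPM in the oligodendrocytes of each PFC library by genotype, with 1 point per library and 1 panel per gene. Sgk1 reaches 2084 CPM in Setd1a+/- replicate 2, Nfkbia does not overlap between genotypes, and Opalin and Mog do.

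None of the genes particular to these cells was called by genotype. All 91 genes at least 4-fold above the other types were tested, with log2 FCs from -0.92 to 0.64 and a median of 0.07, beside a median of 0.00 over all genes tested. Anln was the only member at an unadjusted p under 0.05 (358, 232, 148 and 150 CPM, log2 FC -0.92, SE 0.28, FDR 1.0 from edgeR), and it was found in 46.7% and 32.0% of WT and in 25.5% and 25.8% of Setd1a+/- oligodendrocytes. All 12 lists had 0 genes called (background 0%). Their median log2 FCs lay between -0.26 for immediate early and stress genes (11 tested) and 0.13 for myelin structure (25 tested, 17 of them with a positive log2 FC). For the list on methylation of histone H3 lysine 4, the median of 15 tested was -0.22, and 4 had a positive log2 FC. That list mixes roles and includes the demethylase Kdm5a, so it is not the enzyme family of Setd1a alone. Whether the effect of the genotype differed between PFC and striatal oligodendrocytes was tested as an interaction, with 0 of 7820 genes called (0%), 95 at an unadjusted p under 0.05, and 0 called by DESeq2. With so few libraries this fit could miss even large differences, so the count of 0 does not show that the effects were alike.

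A larger contrast lay between the tissues. The 4 PFC libraries were compared with the 4 striatal ones, with the genotype as a term of the fit, and of 7310 genes 107 were higher in PFC oligodendrocytes (1.46%) and 104 were higher in striatal ones (1.42%) by the same cutoffs (edgeR, n = 4 libraries per tissue). With the replicate number as a block, 226 and 257 were called. With 1 library left out, the 211 calls of both directions together became 47 without striatal WT replicate 2, 70 without striatal Setd1a+/- replicate 1, 74 without striatal WT replicate 1, 94 without PFC WT replicate 1 and 345 without PFC Setd1a+/- replicate 2. Of 41 called genes that belong to a list or are named below by their FC, 11 were called with each of the 8 libraries left out in turn, namely Sytl2, Nkx2-9, Klk6, S100b, Slc9a3r1, Sdf2l1, Opalin, Selenop, Anxa5, P2ry12 and Fos. The sources do not say whether the libraries of the tissues came from the same mice. Striatal Setd1a+/- replicate 2 gave only 67 oligodendrocytes, and its values are the least precise. Whether a difference between the tissues is one of the cells or of their dissociation, which was done per tissue, cannot be told apart.

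S100b had the smallest FDR of the genes listed here. It was 307, 385, 326 and 283 CPM in the PFC and 1236, 1568, 1495 and 1643 CPM in the striatum, a log2 FC of -2.23 (SE 0.17, FDR 6.3e-05 from edgeR). Klk6 was 93.9, 163, 164 and 103 CPM against 536, 668, 537 and 906 CPM (log2 FC -2.36, SE 0.24, FDR 0.00055). Apod was 1918, 2372, 1112 and 2371 CPM against 3914, 5859, 5167 and 4192 CPM (log2 FC -1.35, SE 0.24, FDR 0.010). In each of these genes every striatal library was above every PFC library. Opalin went the other way, with 2645, 2758, 3784 and 2589 CPM in the PFC against 1531, 1418, 1176 and 1114 CPM (log2 FC 1.12, SE 0.18, FDR 0.0071), and so did Ptgds (log2 FC 1.13, SE 0.22, FDR 0.016). Without striatal WT replicate 2 the FDR of Apod was 0.069 and that of Ptgds was 0.079.

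Of these genes, S100b and Ptgds were also among the most variable within each PFC library. In the list of genes known to vary among mature oligodendrocytes, 1 of 23 tested was higher in the PFC, Ptgds, and 6 were higher in the striatum, Klk6, Hopx, Apod, S100b, Selenop and Anxa5. Of all genes tested, 1.46% were higher in the PFC and 1.42% in the striatum. The FDR of Hopx reached 0.11 with 1 library left out, and its call was lost without PFC WT replicate 1, striatal WT replicate 2 or striatal Setd1a+/- replicate 1. The share of cells with a Klk6 UMI was 32.2%, 40.1%, 33.6% and 56.7% in the striatal libraries, and 23.3%, 27.6%, 23.7% and 49.3% with cells thinned to 1000 UMIs. Every one of these lay above every PFC library. Within the striatum, S100b was 6.67 to 8.73 times and Opalin 0.126 to 0.184 times as high in cells with a Klk6 UMI as in the others, ranges that overlap those of the PFC.

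The common myelin genes differed less between the tissues. Mog was 2464, 2228, 2885 and 2341 CPM in the PFC and 2343, 2215, 2145 and 1819 CPM in the striatum (log2 FC 0.17, SE 0.16, FDR 0.62), and Ermn (log2 FC -0.22, FDR 0.52), Mobp (-0.63, FDR 0.18), Mbp (-0.35, FDR 0.31), Cnp (-0.06, FDR 0.88) and Mag (-0.16, FDR 0.79) were not called either. In the myelin structure list 3 of 25 were higher in the PFC, Opalin, Tspan2 and Cd9, and 1 was higher in the striatum, Plekhb1. The shares over all genes tested were 1.46% and 1.42%. With 1 library left out, Tspan2 and Cd9 were each called in 4 of 8 fits and Plekhb1 in 3, and all were lost without PFC WT replicate 1 and without either striatal WT library, with an FDR of up to 0.12, 0.15 and 0.10. Of the 91 genes at least 4-fold above the other PFC types, 8 were higher in the PFC (Opalin, Gm4593, Grb14, Ptgds, Ccp110, Arrdc3, Tspan2 and Ano4) and 5 in the striatum (Klk6, Itgb4, Tppp3, Apod and Fth1). These genes were chosen for being high in the PFC libraries, which by itself tilts them towards the PFC, so nothing is read from these counts.

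Some metabolic genes were higher in the PFC. Of 22 cholesterol synthesis genes tested, 4 were higher and 0 lower, Hmgcs1, Idi1, Msmo1 and Insig1, with a median log2 FC of 0.55 over the list and 18 of 22 positive. Over all genes tested, 1.46% were higher and 1.42% lower, with a median log2 FC of 0.01. Hmgcs1, which makes the precursor of mevalonate, was 365, 299, 424 and 236 CPM against 138, 119, 197 and 126 CPM (log2 FC 1.11, SE 0.22, FDR 0.018). The empty droplets held it at 184, 231, 196 and 249 CPM in the PFC and at 79.0, 70.5, 71.5 and 91.1 CPM in the striatum, so they differed between the tissues in the same direction, and the oligodendrocytes lay above them in all libraries but PFC Setd1a+/- replicate 2. Insig1 was below the empty droplets in 7 of 8 libraries, and Idi1 and Msmo1 were above them in all 8. The empty droplets held more of these 4 genes in every PFC library than in any striatal one, and the part of free RNA in the differences was not tested. Msmo1, a sterol demethylase, was 281, 312, 320 and 314 CPM against 134, 173, 184 and 151 CPM (log2 FC 0.86, SE 0.16, FDR 0.013). With the replicate block 8 members were called, and without both PFC replicate 1 libraries Hmgcs1 and Msmo1 were. With 1 library left out, the calls were less steady: Hmgcs1 had an FDR of 0.059 without PFC WT replicate 1, 0.073 without striatal WT replicate 1 and 0.11 without striatal WT replicate 2, Msmo1 had 0.070 and 0.060 without the latter pair, and Idi1 and Insig1 were each called in 1 of 8 fits, that without PFC Setd1a+/- replicate 2. Tfrc, the receptor that takes up transferrin with its iron, was 66.1, 45.6, 39.5 and 58.6 CPM against 14.9, 13.5, 14.1 and 37.8 CPM (log2 FC 1.71, SE 0.27, FDR 0.0064), with an FDR of up to 0.053 when striatal WT replicate 2 or striatal Setd1a+/- replicate 1 was left out, while Fth1, which stores iron, was higher in the striatum (log2 FC -0.69, SE 0.15, FDR 0.027, called in 3 of 8 fits with 1 library left out). Tfrc lay at 76.1, 65.8, 76.0 and 47.2 CPM in the empty droplets of the PFC, above the oligodendrocytes in 3 of the 4 libraries, and at 23.4, 29.3, 29.1 and 25.9 CPM in those of the striatum, again above the cells in 3 of 4. The free RNA of Tfrc thus differed between the tissues in the same direction, and its part was not tested. Of the 17 members of that trophic list, Slc1a2, a glutamate transporter mainly of astrocytes, was also higher in the PFC and Ldhb, a lactate dehydrogenase subunit, in the striatum. Both were below the empty droplets in all 8 libraries, and Slc1a2 was no longer called without cells holding markers of other types (FDR 0.076). With 1 library left out, Slc1a2 was called in 1 of 8 fits and Ldhb in 3. The fatty acid list had 1 of 14 higher (Acsl3) and the axon contact list 1 of 16 (Ank3). Acsl3 was called in 6 of 8 fits with 1 library left out and Ank3 in 2. The galactolipid, transcription factor, cytoskeleton and histone methylation lists had 0 called in either direction. The receptor list had 1 of 18, P2ry12, a receptor of microglia.

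Immediate early genes are switched on by cells within minutes of a stimulus and also during dissociation. Their list, which also holds stress genes such as Hsp90aa1, had 0 of 15 higher in the PFC and 2 higher in the striatum. The shares over all genes tested were 1.46% and 1.42%. Fos was 52.2, 82.5, 38.2 and 21.4 CPM against 180, 223, 238 and 151 CPM (log2 FC -2.16, SE 0.28, FDR 0.0016). Junb was the other (log2 FC -1.98, FDR 0.035), with a call in 3 of 8 fits that left out 1 library. Both genes were below the empty droplets in every library. Those of the striatum held 241, 259, 364 and 218 CPM of Fos and those of the PFC 478, 192, 510 and 157 CPM, and the part of free RNA in these differences was not tested. The median log2 FC of the list was -0.73, beside 0.01 over all genes tested.

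By the largest FC among called genes that did not overlap and lay above the empty droplets in each library of the tissue where they were higher, the PFC was led by Adamts2, Birc2, Fam46a, Vcl, Clcn5, Gm10687, Fam13c, Itgb1, Sytl2 and A930003A15Rik, with log2 FCs from 1.20 to 1.69. Sytl2, a regulator of vesicle docking, was 188, 111, 164 and 127 CPM against 61.1, 53.3, 62.9 and 69.2 CPM. Vcl and Itgb1 both belong to the adhesions by which cells hold the matrix. The striatum was led by Nkx2-9, C4b, Klk6, Pfn1, S100b, Slc9a3r1, Cbs, Acy3, Sdf2l1 and Hopx, with log2 FCs from -2.63 to -1.94. In the tissue where they were lower, Slc9a3r1 and Fam13c were below the empty droplets in all 4 libraries, Vcl and C4b in 3, Pfn1 and Hopx in 2 and Birc2 in 1. C4b had 7, 0, 0 and 1 UMIs in the PFC libraries, so its fitted FC is not a measured fold and its place in the order is uncertain. With 1 library left out, Sytl2, Nkx2-9, Klk6, S100b, Slc9a3r1 and Sdf2l1 of these 20 stayed called in all 8 fits, while Adamts2 and Fam46a were called in 3, Gm10687 and Pfn1 in 2 and C4b in 1. The other 9 were called in 4 to 6. Nkx2-9, a homeodomain factor of ventral neural territories, was 12.2, 9.85, 15.3 and 8.57 CPM in the PFC and 61.1, 70.2, 71.5 and 88.1 CPM in the striatum, with no overlap (FDR 8.3e-05 from edgeR). Pfn1 was among the genes that were low in both PFC replicate 1 libraries, at 19.1 and 20.4 CPM, against 82.5 and 106 CPM in replicate 2. Without both PFC replicate 1 libraries its log2 FC went from -2.31 to -1.45, and it was no longer called (FDR 0.060). Of the 20 genes, Adamts2, Clcn5, Gm10687, Fam13c, Cbs, Acy3 and Hopx also lost their calls in that fit, with FDRs of 0.054 to 0.19, and Fam46a was too low to be tested.

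**Figure D4:**
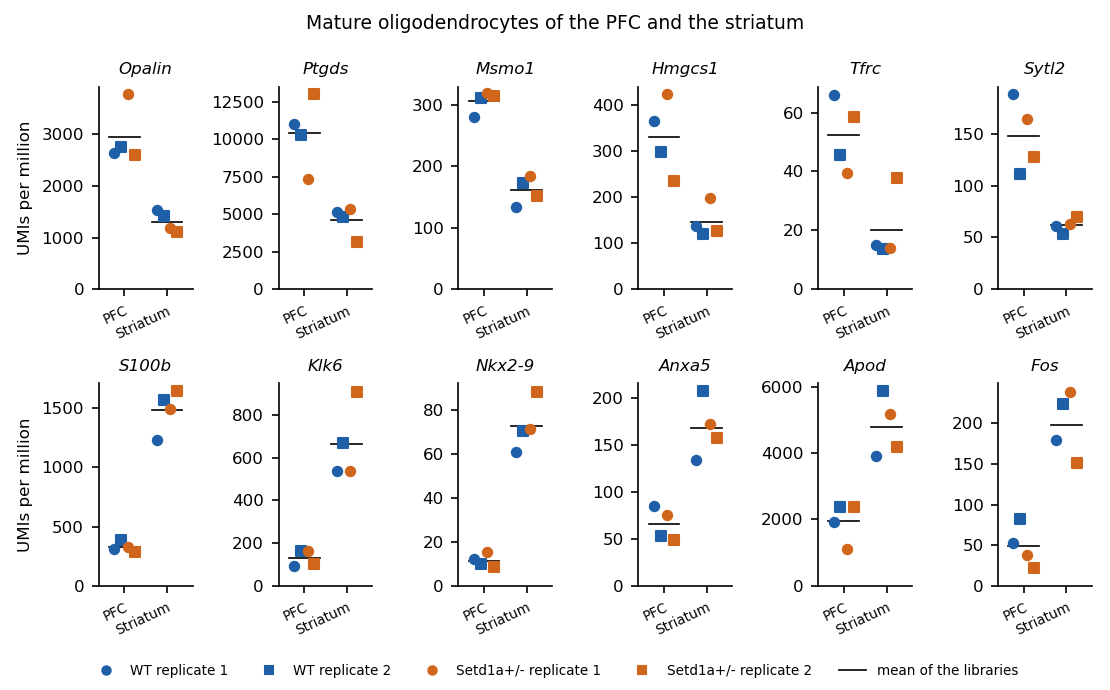
CPM in the oligodendrocytes of each library by tissue, with 1 point per library and 1 panel per gene. Opalin, Ptgds, Msmo1, Hmgcs1, Tfrc and Sytl2 were higher in the PFC and S100b, Klk6, Nkx2-9, Anxa5, Apod and Fos in the striatum, with 307 against 1236 CPM of S100b in the first WT libraries.

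Among the genes called between the tissues were transcripts of other cells. Of the 107 higher in the PFC, 27 were at least 4-fold higher in PFC microglia than in the oligodendrocytes, among them P2ry12, Cx3cr1, Tmem119 and the complement genes C1qa, C1qb and C1qc. Of these 27, 24 were below the empty droplets in the 4 PFC libraries. The microglial marker list was 126, 353, 203 and 151 CPM in the PFC oligodendrocytes. Of the 104 higher in the striatum, 20 were at least 4-fold higher in the D1 or D2 neurons of the striatum, such as Penk and Tac1, and all 20 were below the empty droplets in the 4 striatal libraries. How many of all tested genes were this much higher in microglia or in these neurons was not counted, so no excess is read from the 27 or the 20. Penk, which encodes the enkephalin precursor, was 78.1, 141, 59.9 and 308 CPM in striatal oligodendrocytes and 1890, 2314, 1754 and 1853 CPM in the empty droplets. Cells holding at least 2 UMIs of the markers of another type numbered 38, 37, 19 and 14 in the PFC libraries. With such cells left out of both tissues 200 genes were called, 3 of the 27 microglial and 17 of the 20 neuronal ones among them, while 19 of the microglial and 3 of the neuronal ones were then too low to be tested. S100b, Opalin and Klk6 stayed called, with log2 FCs of -2.24 for S100b, 1.11 for Opalin and -2.32 for Klk6.

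The microglial RNA sat in few cells. Over 10 microglial genes, between 82.9% and 88.3% of the PFC oligodendrocytes held 0 UMIs, while 8, 10, 7 and 5 cells with at least 5 such UMIs held 83.9%, 93.9%, 87.1% and 84.2% of the total. These cells held 4434.5, 2772, 2797 and 3063 UMIs at the median, against 2186, 1880, 2005.5 and 1981 in the rest, and the summed level of the oligodendrocyte markers in them was 10269, 4481, 5276 and 7996 CPM, against 10210, 10862, 12165 and 10882 CPM. Microglial and oligodendrocyte RNA thus occurred under the same barcodes. In the striatum 1, 0, 1 and 0 oligodendrocytes held as many. Of the other marker lists, that of erythrocytes varied most, with 306, 890, 1713 and 41.4 CPM, of which the upper 5% of cells held 69.5%, 99.03%, 98.4% and 55.2%. Astrocyte markers lay between 73.9 and 93.9 CPM, endothelial markers between 11.4 and 91.1, excitatory neuron markers between 19.1 and 91.1, interneuron markers between 3.48 and 40.6, mural markers between 2.86 and 44.3, progenitor markers between 1.43 and 36.9, and medium spiny neuron markers between 0.580 and 4.93. The markers of newly formed oligodendrocytes lay between 124 and 176 CPM.

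The replicates also differed in a fixed set of genes, whatever the genotype. Of 6383 genes with at least 50 UMIs over the 4 PFC libraries, 29 (0.454%) were lower by 4-fold or more in each replicate 1 library than in any replicate 2 library, and 6 (0.0940%) were as much higher. Between the genotypes 0 genes differed in this manner. Gstp1, a glutathione transferase, was 7.54 and 14.0 CPM in replicate 1 and 587 and 670 CPM in replicate 2. Ppp1r14a, an inhibitor of a myosin phosphatase, was 80.6 and 26.8 against 575 and 341 CPM, and Gapdh, the glycolytic enzyme often used as a reference gene, was 44.6 and 22.9 against 425 and 381 CPM. Ap2a1, Bsg and Tmem151a followed by their level. Mt3, a metallothionein, was 0 and 0 against 113 and 75.7 CPM. In 27 of the 29 genes all 4 striatal libraries lay above both PFC replicate 1 libraries. The genes higher in replicate 1 were Rpl10-ps3 (104 and 103 against 14.8 and 17.1 CPM), Rpl9-ps6, Gm11361, Gm10036, Gm10073 and Gm10800, of which the first pair carry the names of ribosomal protein pseudogenes, and the striatal libraries lay below replicate 1 in 6 of 6. Both sets were chosen by their values in replicate 1, which by itself tilts other libraries away from it, so nothing is read from the striatal counts. Part of these genes split the replicates in other PFC types too, where they had enough UMIs. Of the lower genes, 17 of 26 did so in excitatory neurons, 13 of 22 in progenitors, 9 of 16 in endothelial cells, 5 of 9 in astrocytes and 4 of 5 in newly formed oligodendrocytes. Of the higher genes, 5 of 6, 1 of 5 and 4 of 6 did so in the first 3 types and 2 of 4 in newly formed oligodendrocytes. How many of all genes split the replicates in those types was not counted, so no excess is read from these counts.

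**Figure D5:**
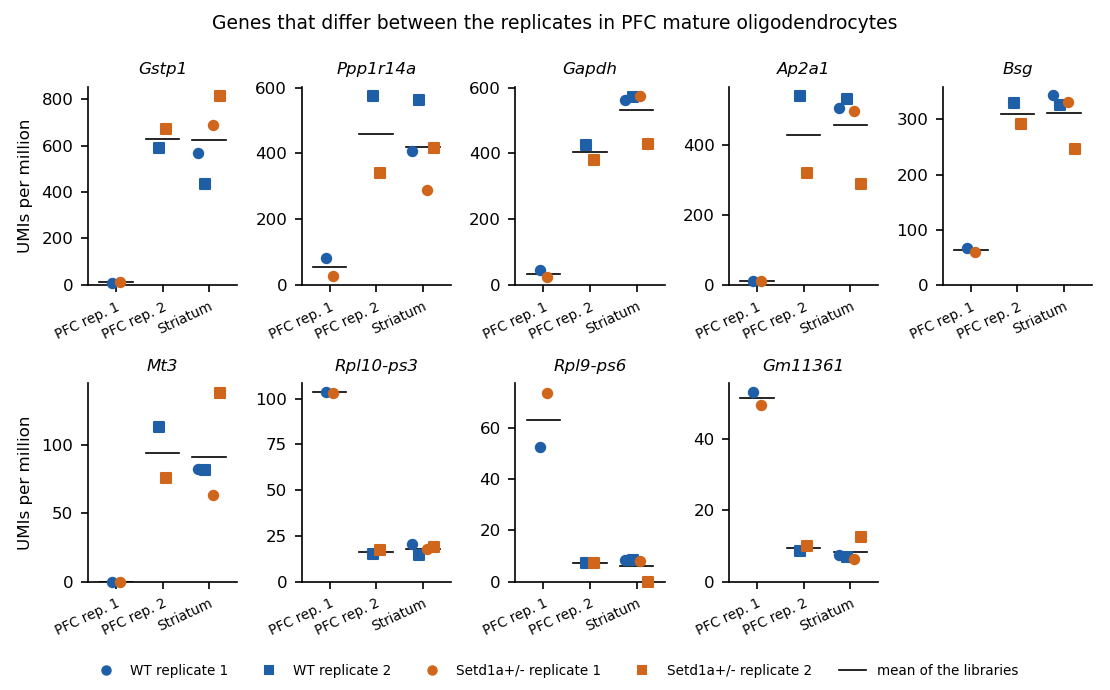
CPM of genes that differed at least 4-fold between the replicates of the PFC in oligodendrocytes of both genotypes, with 1 point per library and the striatal libraries beside them. Gstp1 is at 7.54 and 14.0 CPM in replicate 1 and at 587 and 670 CPM in replicate 2, and Rpl10-ps3 runs the other way.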

How the data were processed

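Raw UMI counts per gene and droplet barcode were made by the authors with Cell Ranger 3.0.2 and deposited per library as whole numbers with all barcodes, and the submitters' processing notes also name Seurat 3.2.0 and the genome build mm10. The other deposited columns hold barcodes, gene names and the authors' annotation of the cells they kept, with at least 800 genes. No other per-sample columns were used, and the gene-by-cell tables of the authors, which list row numbers in place of genes, were left out. Annotated cells were looked up by library and barcode; libraries shared at most 2 barcodes in each of 28 pairs.

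The members, lists and tests were chosen with earlier results of these data known. UMIs were summed per library over the oligodendrocytes and tested with edgeR 4.0.16 in R 4.3.3 (TMM, filterByExpr, quasi-likelihood test, FDR under 0.05 and FC above 1.5), with the library as the replicate. DESeq2 1.42.0 was an alternative. The edgeR fits of genotype, tissue and interaction were run on simulated data with 200 changed genes, and none recovered all of them. The genotype and interaction fits missed nearly all changes of 2-fold, and the interaction fit also missed most changes of 4-fold. Where the libraries of a group are only labelled as separate samples, p-values measure the spread between them. Named genes were Setd1a, the 4 markers, list members, the 20 genes furthest above other PFC types at 50 CPM or more, the 10 genes per direction with the smallest p (genotype) or largest FC (tissue) among those without overlap, the 20 most variable genes, and up to 6 of the replicate genes; Mt3, Gm11361, Gm10036, Gm10073, Gm10800 and members named from the calls were chosen after their values were seen. Some genes that this rule names are not reported here. Empty droplets were barcodes with 1 to 100 UMIs. Residuals used a theta of 100. For folds over other types and between replicates, counts under 3 UMIs were raised to a floor of 3. Doublets were not called; cells holding at least 2 UMIs of another type's markers were left out as an alternative.

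The pairing of the replicate numbers comes from the methods, which give each biological replicate 1 library per genotype. Deviations from the group means correlated at 0.38 across 7925 genes between the same-numbered PFC libraries and at 0.16 between the striatal ones, and at 0.08 and 0.06 between the tissues. Replicates of a group differed by more than sampling noise (chi-square over its degrees of freedom 3.22 to 8.05). The depth was 15154268 to 24594416 UMIs per PFC library, and intervals cover counting error only. Coordinates are from GENCODE vM21 (GRCm38) and promoters from RefSeq (GRCm38.p6). Python 3.11.15, numpy 2.4.6, pandas 2.3.3 and scipy 1.17.1 were used.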

Additional observations from a re-analysis of the deposited data

How the results depend on the processing

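For the genotype, the count of called genes was 0 and became 1 with DESeq2 (9630013A20Rik), 9 with every gene of at least 1 UMI tested (4 higher and 5 lower), and 3 with the replicate block; with each library left out it lay between 0 and 1, the 1 without Setd1a+/- replicate 2 being 9630013A20Rik again. Scaling by library size alone, DESeq2 size factors and leaving out cells with markers of other types gave 0. The interaction stayed at 0 under every alternative run. For the tissues, the count of 211 became 743 with every gene of at least 1 UMI tested and 483 with the replicate block, and it lay between 47 (without striatal WT replicate 2) and 345 (without PFC Setd1a+/- replicate 2) with each library left out; it was 94 without PFC WT replicate 1, 74 without striatal WT replicate 1 and 70 without striatal Setd1a+/- replicate 1. The cause was not tested, except that fewer libraries or cells were fitted where some were left out. Scaling by library size alone gave 132 higher and 81 lower in the PFC in place of 107 and 104. DESeq2 gave 236, of which 193 were shared, and without both PFC replicate 1 libraries 181 were called, of which 114 were shared. Leaving out cells with a Klk6 UMI gave 44, but Klk6 is itself a called gene and its UMIs mark a larger share of striatal cells, so this count says nothing of how stable the calls are. The alternatives without both PFC replicate 1 libraries and without cells holding a Klk6 UMI were chosen after seeing the data. Over the genes named for the tissues, 246 gene settings kept their side of the threshold, 83 lost it and 0 reversed; for the genotype 191 kept it and 9 gained it. The difference of Setd1a+/- from WT was -2.70 points in the share and -30.8 in the UMIs per cell, and with each library left out it lay between -8.89 and 3.50 points and between -182 and 120.5 UMIs, so neither kept its sign. The set of 91 genes became 86 by the mean of the libraries, 115 at a minimum of 20 CPM, and 89 to 95 with each library left out. Depth kept Setd1a itself, with 1 to 7 UMIs per PFC library, out of the tests.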
